A study of Homo sapiens with 12 samples.

Results

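Genes of the heat shock response were followed in THP-1 cells, a human acute monocytic leukaemia line, as a set of 10 named genes. The set held the transcription factor HSF1, the Hsp70 genes HSPA1A, HSPA1B and HSPA8, the Hsp40 gene DNAJB1, the nucleotide exchange factors BAG3 and HSPH1, the Hsp90 gene HSP90AA1, and the mitochondrial chaperonin genes HSPD1 and HSPE1. They were chosen by name, and each was read from the highest-total row among its annotated transcripts. All 10 were among the 15831 genes that passed the filter on low counts. Cells were exposed for 2 hours to AZ5576, known as an inhibitor of CDK9, to THZ531, known as an inhibitor of CDK12 and CDK13, to YKL5124, known as an inhibitor of CDK7, or to the vehicle DMSO. In every group, DMSO included, 4-thiouridine was present at 1 mM for the last 10 minutes. Each group had 3 libraries of 3′ end reads from total RNA, and fly S2 material was added as a spike-in. The labels give no dose of any inhibitor and do not say whether replicates were separate cultures; the p-values below therefore rest on variation between libraries that may be only technical.

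Human read counts per library were between 5048321, in AZ5576 replicate 2, and 12743576, in AZ5576 replicate 1. Levels below are read counts scaled to a common library total (CPM) with TMM factors, and a gene is said to have risen or fallen where its adjusted p from edgeR's quasi-likelihood test was under 0.05. The 3 columns taken as DMSO are headed UT, and were assigned to DMSO because the other 9 columns name the inhibitors. Comparisons between inhibitors do not rest on that step. All 10 monocytic markers examined had counts, although MPO, a granule peroxidase, was at 0.989 to 2.56 CPM. Of 10 markers of other cell types, CD3E, HBB, GATA1 and INS had 0 counts in every library. The summed level of the monocytic markers was 1140 to 1268 CPM under AZ5576, 1272 to 1334 CPM under THZ531, 1016 to 1167 CPM under YKL5124 and 898 to 974 CPM under DMSO. That of the other markers was 5.14 to 10.2 CPM under AZ5576, 8.71 to 11.2 CPM under THZ531, 8.14 to 9.02 CPM under YKL5124 and 7.53 to 9.50 CPM under DMSO. Their part in the results below was not tested. In bulk RNA, fewer cells of a type and less RNA per cell cannot be told apart.

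The heat shock response protects cells from misfolded protein. HSF1 is held inactive by chaperones in unstressed cells; on stress it forms trimers, binds heat shock elements in promoters and switches on chaperone genes. Hsp70 proteins bind unfolded chains with the help of J-domain proteins such as DNAJB1, and nucleotide exchange factors such as BAG3 and HSPH1 let the chain go. Hsp90 finishes the folding of kinases and receptors, and HSPD1 with its lid HSPE1 folds proteins inside mitochondria. Heat shock genes are also textbook cases of promoters where RNA polymerase II pauses and is released by P-TEFb, the complex of CDK9 with a cyclin.

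Heat shock elements are inverted repeats of the unit GAA, and these stretches, which lie before a RefSeq start of a member gene, are shown because they hold such repeats. Capitals mark the GAA and TTC units. The HSPA1A stretch lies at chr6:31815383-31815462 and the HSPA1B stretch at chr6:31827578-31827657, both on the plus strand. The DNAJB1 stretch lies at chr19:14518421-14518507 on the minus strand. The HSPA8 stretches lie at chr11:123062337-123062386 and chr11:123062172-123062196, that of HSP90AA1 at chr14:102087104-102087133 and that of HSPD1 at chr2:197500061-197500090, all on the minus strand. Sequences are from RefSeq (GRCh38.p14), given 5′ to 3′ along the gene.
HSPA1A: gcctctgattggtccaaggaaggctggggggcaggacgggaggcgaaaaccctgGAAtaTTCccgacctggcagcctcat
HSPA1B: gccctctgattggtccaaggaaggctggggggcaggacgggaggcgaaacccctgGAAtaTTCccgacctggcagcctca
DNAJB1: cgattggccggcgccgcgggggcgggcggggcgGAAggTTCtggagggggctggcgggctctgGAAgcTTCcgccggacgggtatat
HSPA8, distal: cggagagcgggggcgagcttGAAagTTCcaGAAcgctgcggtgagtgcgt
HSPA8, proximal: gccccTTCtgGAAggTTCtaagata
HSP90AA1: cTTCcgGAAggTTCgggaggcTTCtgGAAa
HSPD1: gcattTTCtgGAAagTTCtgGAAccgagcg

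Promoter windows of 250 bases before to 50 bases after a RefSeq start were present for 9 of the 10 members, in 13 windows. A run of 3 units (GAANNTTCNNGAA or TTCNNGAANNTTC, which are reverse complements, so that both strands are covered) was found in 3 members: HSPA8, with first bases 230 and 55 bases before the start, HSP90AA1, 88 bases before, and HSPD1, 245 and 240 bases before, the last pair overlapping. Among all 35116 windows, 0.49% held such a run. Counted by gene, as the members are, 0.608% of 27305 genes did in at least 1 window. A run of 2 units (GAANNTTC or TTCNNGAA, each its own reverse complement and contained in the longer run) was found in 6 members and in 13.5% of all windows. By gene the share was 16.2%. The run of 2 units added HSPA1A, 106 bases before the start, HSPA1B, 105 bases before, and DNAJB1, 77 and 47 bases before. BAG3, HSPH1 and HSPE1 had no match in these windows, which says only that these letters were not there. The HSPA1A and HSPA1B windows were 92.0% identical. GENCODE v29 sets the start of the main transcript 199 bases further upstream for HSPA8, 147 bases for HSP90AA1 and 207 bases for HSPD1, so that the proximal HSPA8 stretch and the HSP90AA1 stretch lie after that start. For HSPE1 it lies 385 bases upstream and for HSPH1 461 bases downstream of the RefSeq start, so their windows do not cover the bases just before it.

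Under THZ531 the heat shock genes were mostly higher than under DMSO: 9 of the 10 rose and DNAJB1 fell, whereas 30.4% of all genes tested rose and 32.9% fell (63.4% either way). In all 10 the THZ531 and DMSO libraries did not overlap, as was so for 67% of all genes. The median log2 fold change of the 10 was 0.53, against -0.0024 over all genes. The smaller rises were mid-range: HSF1 lay above 59.7% of all genes, HSPE1 above 65.5% and HSP90AA1 above 71.6%. Scaled to the fly counts instead, HSPA1A, HSPA1B, BAG3 and HSPH1 still rose, and HSF1, HSP90AA1 and HSPE1 turned negative. Under AZ5576, 5 members rose and DNAJB1 fell, whereas 18.6% of all genes rose and 23.1% fell (41.7% either way). The members' median was 0.14, against 0.00651 over all genes. With fly scaling edgeR called 0 members higher under AZ5576 or YKL5124, also at an unadjusted p under 0.05, whereas 3.27% and 3.35% of all genes rose. The AZ5576 count was 3 without DMSO replicate 2 or AZ5576 replicate 1. Under YKL5124, 2 members rose and DNAJB1 fell, whereas 7.25% of all genes rose and 13.5% fell (20.8% either way). The members' median was 0.10, against -0.00441 over all genes. The YKL5124 count was 0 or 1 without any 1 of the 6 libraries, and 0 without DMSO replicate 1, DMSO replicate 2 or YKL5124 replicate 1. These 3 comparisons share the DMSO libraries.

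By GENCODE v29 (GRCh38), HSPA1A spans chr6:31815464-31817946 and HSPA1B chr6:31827735-31830255 on the plus strand. HSPA8 spans chr11:123057489-123063230, DNAJB1 chr19:14514770-14529770, HSPH1 chr13:31134974-31162388, HSP90AA1 chr14:102080738-102139699 and HSPD1 chr2:197486581-197516737, all on the minus strand. BAG3 spans chr10:119651370-119677819 and HSPE1 chr2:197499994-197503457 on the plus strand, and HSF1 lies on chromosome 8. The rows read for HSF1, HSPA8, HSPH1, HSP90AA1 and HSPE1 belong to transcripts annotated with a retained intron or for nonsense-mediated decay. The main transcript's 3′ end row was read from a separate fit, with every row tested on its own. There HSPA8 had a log2 fold change of 0.57 under THZ531 (adjusted p = 1.70e-10), HSPH1 one of 0.82 (adjusted p = 3.56e-13) and HSPE1 one of 0.32 (adjusted p = 0.000235). In that fit HSPH1 lost its call under YKL5124 (0.17, adjusted p = 0.0629), as did HSPA1B (0.31, adjusted p = 0.0637). Between AZ5576 and YKL5124, HSPA1A (adjusted p = 0.0871), HSPA8 (adjusted p = 0.0870) and HSPE1 (adjusted p = 0.164) lost theirs. For HSPA1A and HSPA1B the main transcript's row was already the row read, so only the fit differed. In that fit no row of HSPA8 was called between AZ5576 and YKL5124, so this loss was not particular to the main transcript's row. For the other genes the parts of row and fit were not tested.

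**Figure D1:**
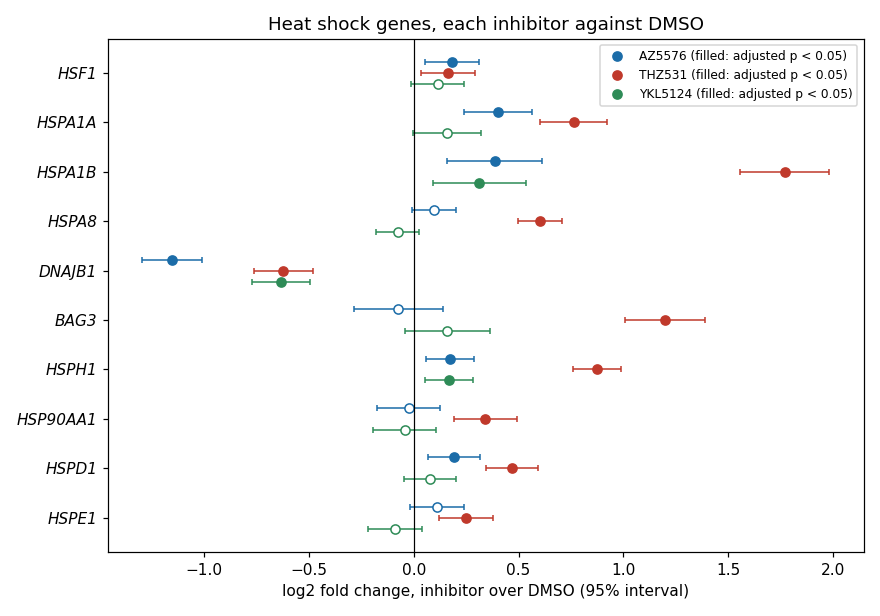
Log2 fold change of each of the 10 heat shock genes in AZ5576, THZ531 and YKL5124 over DMSO (x axis), with 95% intervals; filled points have an adjusted p under 0.05. DNAJB1 lies left of 0 in all 3 comparisons, and HSPA1B and BAG3 lie farthest right under THZ531, at 1.77 and 1.20.

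The master regulator HSF1 had 116, 111 and 115 CPM in the AZ5576 libraries, 115, 110.5 and 113 CPM in the THZ531 libraries, 110.4, 109 and 108 CPM in the YKL5124 libraries, and 102, 105 and 96.1 CPM in the DMSO libraries. All 9 inhibitor libraries lay above the 3 DMSO libraries, by a small margin. The log2 fold change over DMSO was 0.18 (SE 0.06, adjusted p = 0.0197) for AZ5576 and 0.16 (SE 0.06, adjusted p = 0.0237) for THZ531, and with fly scaling both turned negative, at -0.01 and -0.20. For YKL5124 it was 0.11 (95% interval -0.01 to 0.24, adjusted p = 0.204). The row read for HSF1 belongs to a retained-intron transcript. In the separate fit of rows on their own, the main transcript's 3′ end row gave 0.16 (adjusted p = 0.0677) for AZ5576 and 0.11 (adjusted p = 0.150) for THZ531. In that fit no row of HSF1 was called for either inhibitor, so the loss of both calls was not particular to the main transcript's row. Both calls also ended without DMSO replicate 3 (adjusted p = 0.111 and 0.120). The AZ5576 call ended without AZ5576 replicate 1 or 3 (adjusted p = 0.0743 and 0.0559), and the THZ531 call without any of its own libraries (adjusted p = 0.0790 to 0.145). The last exon of HSF1 overlaps DGAT1 on the other strand, whose log2 fold change was 0.30 (adjusted p = 0.00524) under AZ5576 and 0.46 (adjusted p = 2.08e-05) under THZ531; the strand setting of the counting is not given, and the part of DGAT1 reads in these values was not tested.

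HSPA1A and HSPA1B encode nearly the same stress-inducible Hsp70 and are neighbours in the major histocompatibility complex on chromosome 6. HSPA1B had 50.9, 57.5 and 40.7 CPM in the AZ5576 libraries, 110.3, 129.7 and 142 CPM in the THZ531 libraries, 46.0, 43.2 and 49.9 CPM in the YKL5124 libraries, and 36.7, 32.0 and 43.0 CPM in the DMSO libraries. The THZ531 libraries stood clear of all others, the YKL5124 libraries lay just above the DMSO libraries, and the AZ5576 libraries overlapped them. HSPA1B was 3.41-fold higher under THZ531 than under DMSO (log2 1.77, SE 0.10, adjusted p = 4.02e-15), which placed it above 98.6% of all genes. Under AZ5576 the log2 fold change was 0.38 (SE 0.11, adjusted p = 0.00583), and under YKL5124 it was 0.31 (SE 0.11, adjusted p = 0.0400). The YKL5124 call ended without DMSO replicate 1 or 2 (adjusted p = 0.110 and 0.199) and without YKL5124 replicate 1 or 3 (adjusted p = 0.0622 and 0.181).

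HSPA1A had 82.1, 99.5 and 80.6 CPM under AZ5576, 106, 115 and 112 CPM under THZ531, 75.6, 67.4 and 76.3 CPM under YKL5124, and 60.7, 66.0 and 69.7 CPM under DMSO. The THZ531 libraries were highest, the AZ5576 libraries lay between them and DMSO, and the YKL5124 libraries overlapped DMSO. HSPA1A rose 1.70-fold under THZ531 (log2 0.76, SE 0.08, adjusted p = 1.00e-09) and 1.32-fold under AZ5576 (log2 0.40, SE 0.08, adjusted p = 0.000163), the AZ5576 call being lost with fly scaling (log2 0.21, adjusted p = 0.206). For YKL5124 the log2 fold change was 0.16 (95% interval -0.0034 to 0.32, adjusted p = 0.166). Of the 50-base stretches of the HSPA1A transcript, 72.6% also occur in HSPA1B, but within the last 400 bases, where 3′ end reads fall, 5.7% do. With the counts of both genes added, the log2 fold change was 0.40 for AZ5576 (adjusted p = 0.000242), 1.21 for THZ531 (adjusted p = 9.13e-14) and 0.22 for YKL5124 (adjusted p = 0.0600).

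The pair did not move by the same amount. HSPA1B had 0.620, 0.579 and 0.505 counts per HSPA1A count in the AZ5576 libraries, 1.04, 1.13 and 1.26 in the THZ531 libraries, 0.608, 0.641 and 0.654 in the YKL5124 libraries, and 0.604, 0.485 and 0.617 in the DMSO libraries. Only in the THZ531 libraries was HSPA1B counted more often than HSPA1A, and these did not overlap any other group. The mean ratio was 1.15 ± 0.109 under THZ531 and 0.569 ± 0.0729 under DMSO (SD, n = 3 each; exact two-sided permutation p = 0.1, the smallest that 3 against 3 allows, adjusted p = 0.129 over 9 ratio tests). This ratio does not depend on how libraries are scaled.

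**Figure D2:**
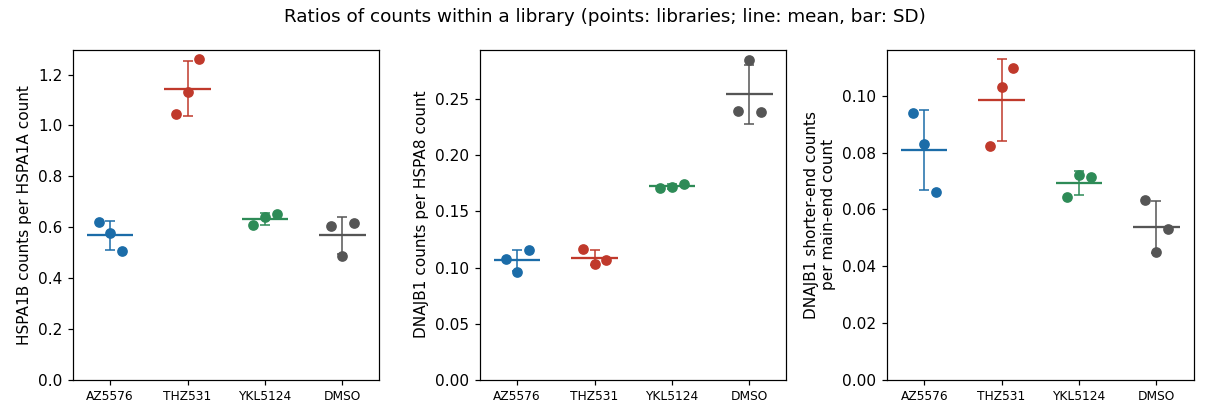
Ratios of counts within each library (y axes, no unit) in the AZ5576, THZ531, YKL5124 and DMSO groups: HSPA1B per HSPA1A, DNAJB1 per HSPA8, and the DNAJB1 row of a shorter transcript per row of the main transcript; points are libraries, lines means and bars SD (n = 3). HSPA1B per HSPA1A is above 1 in the THZ531 libraries alone, and DNAJB1 per HSPA8 is highest in the DMSO libraries.

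HSPA8, the constitutive Hsp70 of the cytosol, had 1324, 1364 and 1358 CPM in the AZ5576 libraries, 1858, 1916 and 1966 CPM in the THZ531 libraries, 1189, 1208 and 1192 CPM in the YKL5124 libraries, and 1238, 1248 and 1298 CPM in the DMSO libraries. The THZ531 libraries were well above the rest, AZ5576 lay slightly above DMSO and YKL5124 slightly below it. HSPA8 rose 1.52-fold under THZ531 (log2 0.60, SE 0.05, adjusted p = 1.67e-11), a call that was lost with fly scaling (log2 0.23, adjusted p = 0.0873). The other intervals reached from -0.01 to 0.20 for AZ5576 and from -0.18 to 0.03 for YKL5124, and neither passed.

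DNAJB1, the J-domain partner that hands unfolded chains to Hsp70 and also binds HSF1, was the exception. It had 142, 131 and 156.5 CPM in the AZ5576 libraries, 216.5, 198 and 209.8 CPM in the THZ531 libraries, 203, 207 and 208 CPM in the YKL5124 libraries, and 297, 355.5 and 309 CPM in the DMSO libraries. Every inhibitor library lay below every DMSO library, and the AZ5576 libraries lay below all the others. The level under AZ5576 was 0.450 times that under DMSO (log2 -1.15, SE 0.07, adjusted p = 4.36e-14). DNAJB1 fell by 0.62 on the log2 scale under THZ531 (SE 0.07, adjusted p = 4.45e-09) and by 0.64 under YKL5124 (SE 0.07, adjusted p = 2.67e-08). These falls kept their direction and call under every scaling, filter, test and left-out library that was tried. The log2 fold change of DNAJB1 lay above that of 6.71% of all genes under AZ5576, 26.1% under THZ531 and 7.79% under YKL5124. Between AZ5576 and THZ531 the log2 difference was -0.53 (SE 0.07, adjusted p = 2.03e-07). Between THZ531 and YKL5124 it was 0.01 (95% interval -0.13 to 0.15, adjusted p = 0.890), but -0.26 when scaled by library size alone and -0.29 by the fly counts, both called.

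Relative to HSPA8 in the same library, DNAJB1 had 0.108, 0.0961 and 0.115 counts per HSPA8 count under AZ5576, 0.117, 0.103 and 0.107 under THZ531, 0.171, 0.172 and 0.175 under YKL5124, and 0.240, 0.285 and 0.238 under DMSO. The AZ5576 and THZ531 values overlapped, the YKL5124 values lay above both, and the DMSO values were highest. The means were 0.106 ± 0.00963, 0.109 ± 0.00684, 0.172 ± 0.00212 and 0.254 ± 0.0264 in the same order of groups (SD, n = 3 each; exact two-sided permutation p = 0.1 for each inhibitor against DMSO, adjusted p = 0.129). HSPA8 itself was at 1.07 times its DMSO level under AZ5576, not called, and at 1.52 times under THZ531. DNAJB1 was at 0.450 and 0.649 times its DMSO level, so the like ratios did not mean like falls of DNAJB1.

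The row read for DNAJB1 was that of its main transcript, ENST00000254322, whose last exon lies at chr19:14514770-14516170. The row of another protein-coding transcript, ENST00000396969, had 0.0941, 0.0830 and 0.0660 counts per main-row count under AZ5576, 0.0822, 0.103 and 0.110 under THZ531, 0.0644, 0.0722 and 0.0714 under YKL5124, and 0.0633, 0.0452 and 0.0533 under DMSO. Every inhibitor library had a higher share than every DMSO library (exact two-sided permutation p = 0.1 for each inhibitor, adjusted p = 0.129). With rows tested on their own, this smaller row fell under AZ5576 (log2 -0.58, SE 0.13, adjusted p = 0.000727), had a log2 fold change of 0.21 under THZ531 (SE 0.12, adjusted p = 0.139) and one of -0.26 under YKL5124 (SE 0.12, adjusted p = 0.177). The main row gave -1.18, -0.67 and -0.64 in the same order, all called. The remaining row of the 3 tested had log2 fold changes of 0.32 under THZ531 and 0.04 under YKL5124. It was not called against DMSO for any inhibitor.

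**Figure D3:**
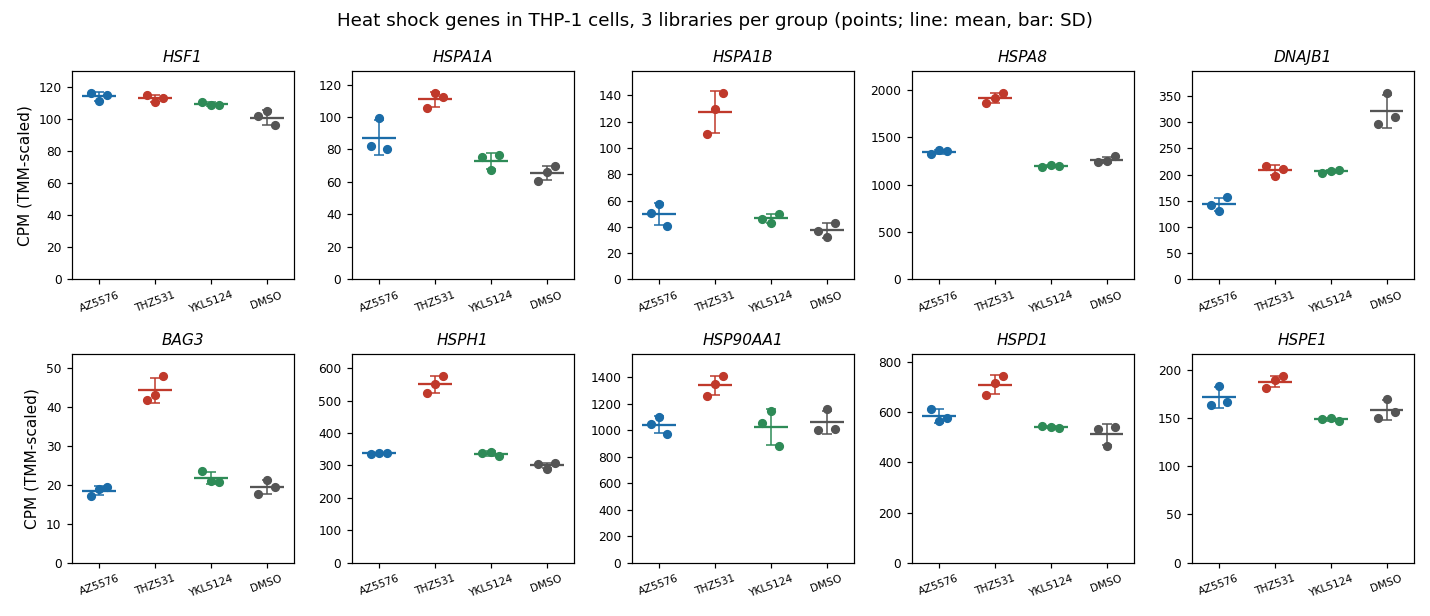
CPM after TMM scaling (y axes, each from 0) of the 10 heat shock genes in the AZ5576, THZ531, YKL5124 and DMSO libraries; points are libraries, lines group means and bars SD (n = 3). THZ531 libraries are highest for HSPA1A, HSPA1B, HSPA8, BAG3 and HSPH1, while DNAJB1 is highest in DMSO.

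Of the nucleotide exchange factors, BAG3 links Hsp70 to autophagy and HSPH1 is the Hsp110 of the cytosol. BAG3 had 17.1, 18.8 and 19.3 CPM in the AZ5576 libraries, 41.9, 43.0 and 47.8 CPM in the THZ531 libraries, 23.5, 20.8 and 20.7 CPM in the YKL5124 libraries, and 17.6, 21.2 and 19.4 CPM in the DMSO libraries. The THZ531 libraries were far above the rest, and the AZ5576 and YKL5124 libraries both overlapped DMSO. BAG3 rose 2.29-fold under THZ531 (log2 1.20, SE 0.09, adjusted p = 2.75e-12), above 96.9% of all genes, and by 0.83 on the log2 scale with fly scaling. Intervals over DMSO reached from -0.28 to 0.14 for AZ5576 and from -0.04 to 0.36 for YKL5124.

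HSPH1 had 336, 339.6 and 338 CPM in the AZ5576 libraries, 523.5, 552 and 575 CPM in the THZ531 libraries, 338.5, 343 and 328 CPM in the YKL5124 libraries, and 304, 289.7 and 306 CPM in the DMSO libraries. All inhibitor libraries lay above DMSO, with THZ531 far above and the other two inhibitors overlapping each other. HSPH1 rose 1.83-fold under THZ531 (log2 0.88, SE 0.06, adjusted p = 3.33e-14) and remained called with fly scaling (log2 0.51). The log2 fold change was 0.17 under AZ5576 (SE 0.06, adjusted p = 0.0155), which turned to -0.03 with fly scaling, and 0.17 under YKL5124 (SE 0.06, adjusted p = 0.0334). The AZ5576 call ended without DMSO replicate 2 (adjusted p = 0.0577). The YKL5124 call ended without any 1 of the DMSO libraries or without YKL5124 replicate 1 or 2 (adjusted p = 0.0590 to 0.117).

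HSP90AA1, the inducible cytosolic Hsp90, had 1044, 1102 and 974 CPM in the AZ5576 libraries, 1259, 1346 and 1405 CPM in the THZ531 libraries, 1050, 1146 and 879 CPM in the YKL5124 libraries, and 1002, 1159 and 1010 CPM in the DMSO libraries. The THZ531 libraries lay above the others, which overlapped. Under THZ531 it was 1.27-fold higher (log2 0.34, SE 0.07, adjusted p = 0.000196), and -0.02 on the log2 scale with fly scaling. The intervals for AZ5576, -0.17 to 0.13, and YKL5124, -0.19 to 0.11, spanned 0. The row read for HSP90AA1 belongs to a transcript annotated for nonsense-mediated decay. In the fit of rows on their own, the main transcript's 3′ end row gave 0.22 under THZ531 (adjusted p = 0.00139).

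The mitochondrial chaperonin genes HSPD1 and HSPE1 lie head to head on chromosome 2. HSPD1 had 614, 563 and 578 CPM in the AZ5576 libraries, 670.4, 716 and 743 CPM in the THZ531 libraries, 545, 542 and 539 CPM in the YKL5124 libraries, and 533, 465 and 541 CPM in the DMSO libraries. HSPE1 had 164, 183 and 167 CPM in the AZ5576 libraries, 181, 189 and 193 CPM in the THZ531 libraries, 149, 149 and 146.5 CPM in the YKL5124 libraries, and 149.5, 169 and 156 CPM in the DMSO libraries. HSPD1 was highest in the THZ531 libraries and above DMSO in every AZ5576 library, while the highest AZ5576 library of HSPE1 lay above the lowest THZ531 library. HSPD1 rose by a log2 fold change of 0.47 under THZ531 (SE 0.06, adjusted p = 9.49e-08), which was 0.10 and not called with fly scaling, and by 0.19 under AZ5576 (SE 0.06, adjusted p = 0.0129), which was -0.01 with fly scaling. The AZ5576 call of HSPD1 ended without DMSO replicate 2 (adjusted p = 0.106) or AZ5576 replicate 1 (adjusted p = 0.0845). HSPE1 had a log2 fold change of 0.25 under THZ531 (SE 0.06, adjusted p = 0.00116) and of -0.12 with fly scaling. Under AZ5576 its log2 fold change was 0.11 (SE 0.06, adjusted p = 0.173) and under YKL5124 -0.09 (SE 0.06, adjusted p = 0.341), and that of HSPD1 under YKL5124 was 0.08 (SE 0.06, adjusted p = 0.411).

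HSPD1, HSPE1 and HSP90AA1 have processed pseudogenes, whose counts came to 46.0% to 74.9%, 88.8% to 117% and 48.9% to 61.5% of the parent's count. Of the 50-base stretches in the last 400 bases, 32.5% of those of HSPE1 also occur in another gene, against 0% for HSPD1 and HSP90AA1. With these counts added, an alternative chosen after seeing the data, the log2 fold change under THZ531 was 0.34 for HSPD1 (adjusted p = 3.16e-06), 0.29 for HSP90AA1 (adjusted p = 0.000347) and 0.16 for HSPE1 (adjusted p = 0.0682), so the HSPE1 call was lost.

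Compared directly, AZ5576 gave lower levels than THZ531 for 8 of the 10 members, whereas 27.1% of all genes were lower and 27.8% higher, and HSF1 and HSPE1 did not pass. The largest of these differences was for HSPA1B, at -1.39 on the log2 scale (SE 0.10, adjusted p = 1.41e-12), followed by BAG3 at -1.27 (SE 0.10, adjusted p = 2.20e-12). With fly scaling 5 of the 8 passed, whereas 14.5% of all genes were then lower and 34.2% higher. THZ531 gave higher levels than YKL5124 for 8 members, whereas 30.5% of all genes were higher and 61% differed either way. HSPA1B was at 1.46 (SE 0.10, adjusted p = 3.37e-13) and BAG3 at 1.04 (SE 0.09, adjusted p = 7.97e-11). With fly scaling 5 of these rises passed, whereas 10.6% of all genes were then higher and 41.8% lower. Between AZ5576 and YKL5124, 3 members were higher, HSPA1A, HSPA8 and HSPE1, whereas 6.23% of all genes were, and DNAJB1 was lower by -0.52 (SE 0.07, adjusted p = 3.57e-06), whereas 9.6% of all genes were lower and 15.8% differed either way. None of those 3 rises passed in edgeR with library size alone or with fly scaling, also at an unadjusted p under 0.05, and each was lost without at least 1 library, HSPA8 without YKL5124 replicate 3 (adjusted p = 0.0505), HSPA1A and HSPE1 without AZ5576 replicate 2 (adjusted p = 0.186 and 0.112).

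The median change of all genes depended on how the libraries were scaled. TMM sets each change against the middle of the human genes. Scaling by the fly counts moved the median log2 fold change of all genes to -0.17 for AZ5576, -0.37 for THZ531 and -0.07 for YKL5124, and library size alone moved it to -0.12, -0.29 and -0.02. The human to fly ratio of counts was 7.97 to 9.27 under AZ5576, 8.57 to 9.21 under THZ531, 8.62 to 9.33 under YKL5124 and 8.47 to 10.6 under DMSO, so the groups overlapped.

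**Figure D4:**
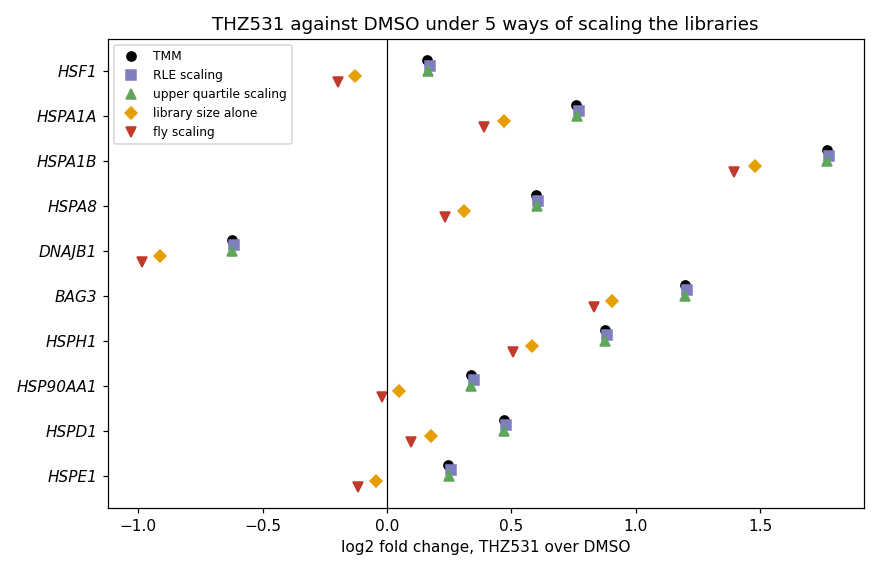
Log2 fold change of each heat shock gene in THZ531 over DMSO (x axis) under TMM, RLE, upper quartile, library size and fly scaling. HSPA1B, BAG3, HSPH1 and HSPA1A stay right of 0 and DNAJB1 left of 0 under all 5, whereas HSF1 and HSPE1 cross 0 with library size and fly scaling and HSP90AA1 with fly scaling.

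Other genes of the chaperone network were read from 9 lists with 78 genes, of which 71 were tested. Under THZ531, 48 of the 71 rose and 8 fell (median log2 fold change 0.30), whereas 30.4% of all genes rose and 32.9% fell. With fly scaling 7 rose and 17 fell (median -0.08), whereas 7.05% of all genes rose and 46.5% fell (median -0.37). Under AZ5576, 21 rose and 17 fell (median 0.10), whereas 18.6% of all genes rose and 23.1% fell. With fly scaling edgeR called 0 higher there, also at an unadjusted p under 0.05, and 20 lower, whereas 3.27% of all genes rose and 28.5% fell. Under YKL5124, 2 rose and 9 fell (median 0.01), whereas 7.25% of all genes rose and 13.5% fell. With fly scaling edgeR called 0 higher under YKL5124 (2 at an unadjusted p under 0.05) and 8 lower, whereas 3.35% of all genes rose and 12.5% fell. The counts of single lists below can be read against these shares. The stress-inducible Hsp70 gene HSPA6 and the small heat shock protein genes CRYAB, HSPB6 and HSPB8 were too low to test.

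Among regulators of the response, IER5, an immediate early gene whose protein binds HSF1 and promotes its activity, differed most. IER5 had 25.8, 26.3 and 22.3 CPM in the AZ5576 libraries, 288, 307 and 306 CPM in the THZ531 libraries, 79.9, 70.1 and 74.3 CPM in the YKL5124 libraries, and 132, 131 and 134 CPM in the DMSO libraries. No groups overlapped: THZ531 was highest, then DMSO, then YKL5124, then AZ5576. The log2 fold change of IER5 was -2.43 under AZ5576 (SE 0.08, adjusted p = 4.73e-20), 1.18 under THZ531 (SE 0.06, adjusted p = 7.06e-16) and -0.83 under YKL5124 (SE 0.07, adjusted p = 9.94e-11), and it stayed called in these directions with fly scaling for AZ5576 and THZ531 (-2.61 and 0.82).

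HSF2, a second heat shock factor that can form trimers with HSF1, showed the same order of groups. It had 49.9, 47.5 and 55.2 CPM in the AZ5576 libraries, 127, 132.5 and 134 CPM in the THZ531 libraries, 69.5, 64.9 and 59.1 CPM in the YKL5124 libraries, and 92.2, 96.5 and 98.3 CPM in the DMSO libraries. Its log2 fold change was -0.90 under AZ5576 (adjusted p = 3.43e-11), 0.46 under THZ531 (adjusted p = 1.29e-06; 0.09 and not called with fly scaling) and -0.57 under YKL5124 (adjusted p = 3.94e-07). In this list of 5 tested genes, 1 rose and 3 fell under AZ5576, 4 rose under THZ531, and 2 fell under YKL5124; over all genes 18.6% rose and 23.1% fell under AZ5576, 30.4% rose under THZ531 and 13.5% fell under YKL5124. With fly scaling the THZ531 count was 1, which was IER5, whereas 7.05% of all genes rose. The falls stayed at 3 under AZ5576 and 2 under YKL5124, whereas 28.5% and 12.5% of all genes fell with that scaling.

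All 8 other genes known to be induced by heat shock rose under THZ531 (median 0.46), of which 2, DEDD2 and HMOX1, still rose with fly scaling, whereas 30.4% of all genes rose, and 7.05% with fly scaling. DEDD2, a death effector domain gene, had 16.4, 18.0 and 14.3 CPM in the AZ5576 libraries, 37.6, 49.1 and 42.5 CPM in the THZ531 libraries, 21.7, 21.3 and 22.1 CPM in the YKL5124 libraries, and 20.9, 22.4 and 22.4 CPM in the DMSO libraries. It rose by 0.98 under THZ531 (adjusted p = 4.42e-10) and fell by 0.46 under AZ5576 (adjusted p = 0.00117). HMOX1, heme oxygenase, was low throughout, with 7.02, 10.2 and 10.1 CPM in the THZ531 libraries and 3.70, 3.14 and 2.59 CPM in the DMSO libraries, and rose by 1.54 (adjusted p = 7.69e-08). In this list 1 gene rose and 3 fell under AZ5576, against 18.6% and 23.1% of all genes.

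In the list of Hsp90 genes and co-chaperones 11 of 13 rose under THZ531 (median 0.52), against 30.4% of all genes. With fly scaling 2 rose and 1 fell, against 7.05% and 46.5% of all genes. SUGT1, an Hsp90 co-chaperone, had 84.3, 82.9 and 86.8 CPM in the AZ5576 libraries, 157, 167 and 172 CPM in the THZ531 libraries, 80.8, 86.0 and 84.3 CPM in the YKL5124 libraries, and 72.2, 81.6 and 80.4 CPM in the DMSO libraries. Its rise of 1.09 under THZ531 (SE 0.07, adjusted p = 1.02e-14) held with fly scaling (0.72). HSP90AB1, the constitutive Hsp90, rose by 0.57 under THZ531 (adjusted p = 1.11e-09), which was 0.19 and not called with fly scaling. Under AZ5576, 7 of the 13 rose, against 18.6% of all genes, led by the kinase co-chaperone CDC37 at 0.31 (adjusted p = 0.000123). With fly scaling edgeR called 0 of them higher under AZ5576, also at an unadjusted p under 0.05, whereas 3.27% of all genes rose. In the TRiC chaperonin, which folds actin and tubulin, 7 of 8 subunit genes rose under THZ531, led by TCP1 at 0.58 (adjusted p = 4.50e-10). Under AZ5576 5 rose, led by CCT8 at 0.23 (adjusted p = 0.00114). Over all genes 30.4% rose under THZ531 and 18.6% under AZ5576. With fly scaling edgeR called 0 subunit genes higher in either comparison, also at an unadjusted p under 0.05. Over all genes 7.05% rose under THZ531 and 3.27% under AZ5576 with that scaling.

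J-domain genes moved both ways: 5 of 12 rose and 4 fell under THZ531, near the 30.4% and 32.9% of all genes. With fly scaling edgeR called 0 of them higher under THZ531, also at an unadjusted p under 0.05, and 7 lower, where 46.5% of all genes fell. DNAJB6 fell by 0.64 under THZ531 (adjusted p = 1.02e-09) and was higher by 0.42 under AZ5576 (adjusted p = 3.51e-06) and by 0.33 under YKL5124 (adjusted p = 0.000200); with fly scaling neither rise passed (0.23 and 0.26). DNAJB2 had negative log2 fold changes in all 3 comparisons, -1.10 under AZ5576 (adjusted p = 1.49e-06), -1.36 under THZ531 (adjusted p = 2.75e-08) and -0.63 under YKL5124 (adjusted p = 0.00179), as DNAJB1 had. DNAJA1, a cytosolic partner of Hsp70, rose by 0.50 under THZ531 (adjusted p = 7.12e-08; 0.13 and not called with fly scaling). Under AZ5576, 1 J-domain gene rose and 5 fell, against 18.6% and 23.1% of all genes. Under YKL5124 1 rose and 3 fell, against 7.25% and 13.5%.

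Of the other nucleotide exchange factors, 5 of 8 rose under THZ531, against 30.4% of all genes. With fly scaling 1 rose and 3 fell there, against 7.05% and 46.5% of all genes. Under AZ5576 and under YKL5124 3 fell, against 23.1% and 13.5% of all genes. BAG4 was higher under THZ531 by 0.73 (adjusted p = 1.43e-06; 0.36 and called with fly scaling), while it fell by 0.71 under AZ5576 (adjusted p = 4.67e-05). BAG5 fell by 0.80 under AZ5576 (adjusted p = 1.35e-08) and by 0.59 under YKL5124 (adjusted p = 4.17e-06), and had a log2 fold change of -0.19 under THZ531 (adjusted p = 0.0525). Among other Hsp70 genes, 4 of 9 rose and 1 fell under THZ531, against 30.4% and 32.9% of all genes. With fly scaling 1 rose and 1 fell, against 7.05% and 46.5% of all genes. The rises were led by the endoplasmic reticulum chaperone HYOU1 at 0.65 (adjusted p = 1.48e-09), which also passed with fly scaling (0.28). HSPB1, the only small heat shock protein gene tested, rose by 0.63 under THZ531 (adjusted p = 4.02e-10) and by 0.22 under AZ5576 (adjusted p = 0.00517), and passed in neither with fly scaling. Among 7 other genes of mitochondrial protein quality control, 3 rose and 3 fell under THZ531, against 30.4% and 32.9% of all genes. With fly scaling edgeR called 0 higher, also at an unadjusted p under 0.05, and 4 lower, against 7.05% and 46.5% of all genes under THZ531. AFG3L2, an inner membrane protease, fell by 0.42 there (adjusted p = 1.15e-06), and YME1L1, another, was higher by 0.34 under AZ5576 (adjusted p = 0.000190) and by 0.36 under YKL5124 (adjusted p = 0.000246), neither of which passed with fly scaling (0.16 and 0.29).

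**Figure D5:**
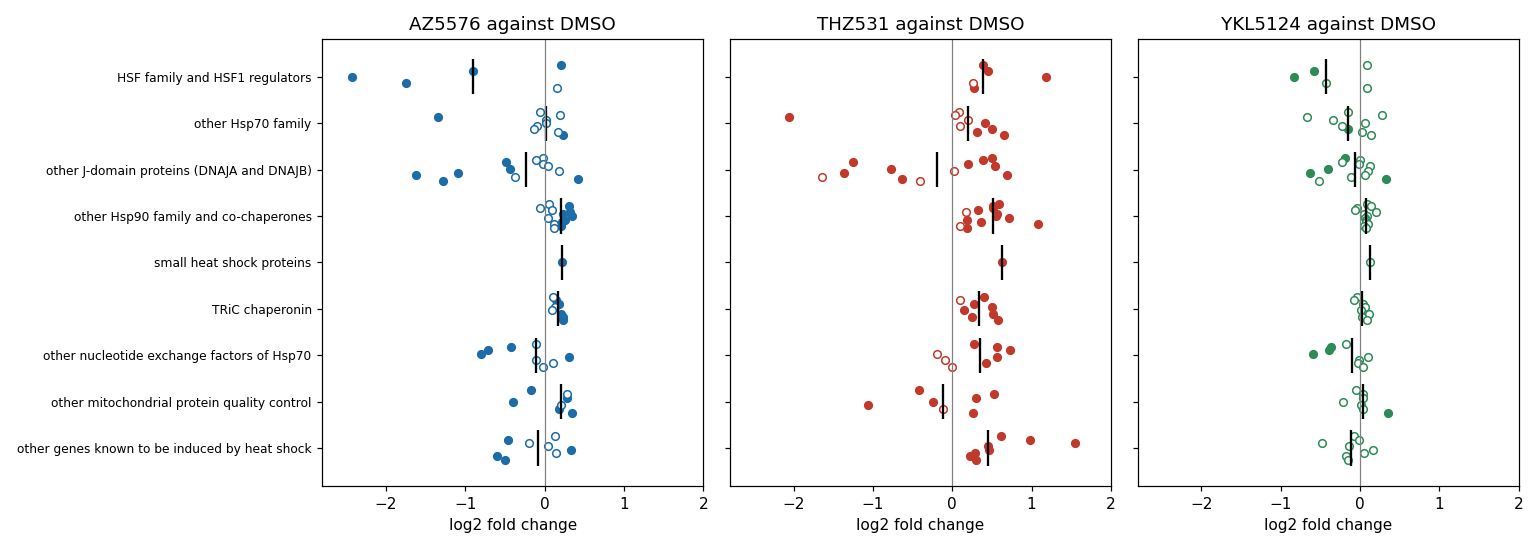
Log2 fold change over DMSO (x axis) of the tested genes of 9 lists of chaperone network genes (rows) under AZ5576, THZ531 and YKL5124; filled points have an adjusted p under 0.05 and black lines are list medians. Under THZ531 48 of 71 genes are filled and right of 0, a count that falls to 7 with fly scaling, and the point farthest left under AZ5576 is IER5 at -2.43.

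Over the 12 libraries, the genes whose log2 CPM followed DNAJB1 most closely among 8618 genes were MEPCE, TNFSF10, IMP3, GEMIN4 and HLX, with Pearson r of 0.974 for HLX to 0.987 for MEPCE. For HSPD1 they included HSP90AB1, SUMO3, PPT1 and CCNI, with r of 0.989, 0.985, 0.984 and 0.983. These are descriptions over 4 groups of 3 libraries, and the libraries of a group share their treatment.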

How the data were processed

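Total 3′ end read counts were analysed in 12 THP-1 libraries. The authors deposited raw read counts per row, not normalised. Of tools, the submitters' processing notes list edgeR 3.32.1, Trim Galore 0.6.5 and bcl2fastq 2.17.1.14; as builds they list dm6 and hg38. How reads were aligned and counted, and on which strand, is not given in the sources used here. GENCODE v29 (GRCh38) supplied gene names; 5197 of 256726 human rows had no name, held 0.655% to 0.719% of human counts and were left out, as were 94 genes with counts identical to another gene's. Rows overlap, so 1 row per gene, the one with the highest total, was used. A row that gained counts in 1 group can be chosen through that group.

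Genes passed filterByExpr (minimum count 10). One quasi-likelihood fit in edgeR 4.0.16 (R 4.3.3) used the 12 libraries, a term for group and TMM factors over human genes. P-values were adjusted over 15831 genes by the Benjamini-Hochberg method (threshold 0.05); log2 CPM used a prior count of 2. Standard errors were derived from the log2 fold change and the F statistic. Replicates within groups differed by a chi-square per gene of 1.73 to 5.00, so no library was a copy. Ratios within libraries were compared by exact permutation tests. The script was tested on simulated data. The members, lists and tests were chosen with earlier results of these data known. Named genes are the 10 members, in each list the gene with the smallest adjusted p in each comparison with DMSO plus at most 2 more, and the 5 genes most like DNAJB1 and HSPD1. Alternatives were DESeq2 1.42.0, scaling by RLE, upper quartile, library size or fly counts, no filter or a stricter one, and summed rows. Others were the 6 libraries compared alone, a replicate block and leaving out each library. The main transcript's row was read from a fit with all rows tested on their own. RNA labelled with 4-thiouridine was not analysed here. Some genes that the rule names are not reported here.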

Additional observations from a re-analysis of the deposited data

How the results depend on the processing

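Of 1056 alternative values for single members, 954 kept their side of the threshold, 82 lost the call, 9 gained it and 11 changed sign with a call on at least 1 side. Of the 954, 905 kept their sign and 49, not called either way, changed it, 16 of them with fly scaling or library size alone; HSF1 between THZ531 and YKL5124 was -0.25 with fly scaling. The fall of DNAJB1 against DMSO held in every alternative for all 3 inhibitors. Counts are from edgeR unless DESeq2 is named. Scaling changed most. With fly scaling the members that rose against DMSO numbered 0 for AZ5576, 4 for THZ531 and 0 for YKL5124. Over all genes 3.27%, 7.05% and 3.35% rose in the same order. Between inhibitors, 5 members were lower under AZ5576 than THZ531 (14.5% of all genes) and 0 higher under AZ5576 than YKL5124 (0.929%). Under THZ531, 5 members were higher and 1 lower than under YKL5124, against 10.6% and 41.8% of all genes. With library size alone, 1 member rose under AZ5576 and 0 under YKL5124 (2 at an unadjusted p under 0.05) against DMSO. Over all genes 8.39% and 6.3% rose with that scaling. Between AZ5576 and THZ531, 1 member was higher under AZ5576, against 37.3% of all genes. Between AZ5576 and YKL5124, 0 were higher and 2 lower under AZ5576, against 1.72% and 15.1% of all genes. Between THZ531 and YKL5124, 5 were higher and 2 lower under THZ531, against 15.0% and 44.1%. Upper quartile scaling gave 4 rises under YKL5124, where 2020 of 15831 genes rose, against 1148 with TMM. Without the count filter 3 rose under AZ5576 and 1 under YKL5124, where 2662 and 1003 of 30599 genes rose. With rows summed, 1 rose under YKL5124 (870 of 16746 genes) and 1 was higher under AZ5576 than YKL5124 (775 of 16746 genes). That last count was 0 in a fit to those 6 libraries (641 of 15018 genes) and 1 with DESeq2 (624 of 15831 genes). Leaving out each library gave 3 to 5 rises under AZ5576 against DMSO, 0 to 1 under YKL5124 against DMSO, and 1 to 3 members higher under AZ5576 than YKL5124. Over all genes, of which 16145 to 16247 were tested, these fits gave 2419 to 2980, 861 to 971 and 511 to 946 in the same order. Reversed values against DMSO with fly scaling were -0.0053 for HSF1, -0.025 for HSPH1 and -0.0081 for HSPD1 under AZ5576, and -0.20 for HSF1, -0.021 for HSP90AA1 and -0.12 for HSPE1 under THZ531; with library size alone HSF1 was -0.13 and HSPE1 -0.043 under THZ531. Between THZ531 and YKL5124, DNAJB1 was -0.29 with fly scaling and -0.26 with library size alone, and HSF1 -0.22 with library size alone. The cause was not tested. The depth of AZ5576 replicate 2, 5048321 counts, limits its low genes.

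Replicate numbers gave no sign of pairing: deviations of same-numbered libraries correlated at -0.102 to 0.072. With a replicate block, 5, 9 and 2 members rose and 1 fell under AZ5576, THZ531 and YKL5124 against DMSO, and no member's call changed. Over all genes the block left 2920 rises and 3600 falls under AZ5576, against 2949 and 3654 without it.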
